A study of Homo sapiens and Mus musculus with 8 samples.

Results

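Solute carrier genes were followed in B16N mouse melanoma cells exposed to UV and in a B16N clone that carries tagged Orai1. They were taken as every gene symbol that begins with Slc, a number, the letter a and a further number, apart from 9 such genes of cystine, melanosome, glucose, lactate, zinc and copper transport. The rule gave 233 of the 15966 symbols in the 3 B16N tables, and 6 of these symbols name no transporter (Slc2a4rg-ps, Slc36a1os, Slc4a1ap, Slc7a6os, Slc9a3r1 and Slc9a3r2). Because the rule asks for the letter a, it takes the Slc35a branch of the nucleotide sugar transporters and no other branch.

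Solute carriers are membrane proteins that move amino acids, sugars, ions, metals and metabolites across the plasma membrane and the membranes of organelles. They work as exchangers, as cotransporters driven by sodium or proton gradients, or as facilitators that follow a gradient. Some amino acid carriers are light chains that reach the cell surface only when joined to the heavy chain Slc3a2, and the Slc25 family carries nucleotides, phosphate, carboxylic acids and amino acids mainly across the inner mitochondrial membrane. Tumour cells take up glutamine and essential amino acids through Slc1a5, the Slc38 family and Slc7a5.

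The series covers 8 samples of 3 melanoma lines, and the genes are described here in the 4 B16N samples, 1 per group. The treated samples were wild-type B16N after 2 weeks of UV, wild-type B16N after 5 weeks of UV, and a line labelled Orai1 overexpressing, made with a CFP-tagged wild-type Orai1, which forms the pore of the channel for store-operated calcium entry. The last was kept under the selection drug G418, sorted by fluorescence and expanded from single cells, so it stands for 1 clone. The untreated wild-type line was the control of all 3 comparisons, and both it and the clone were labelled day 0. Weeks in culture and UV cannot be told apart in the UV samples, nor can Orai1, transfection, drug selection and cloning be told apart in the clone.

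Every value is the authors' own log2 change of a treated sample against the control, signed so that a positive value is higher in the treated sample. Levels and depth per sample are unknown, so a change is given with its standard error (SE) and with a Benjamini-Hochberg adjusted p, computed over all genes of that table from the deposited p-values. A gene is said to have risen or fallen where that adjusted p was under 0.05. With 1 sample per group no change has a replicate check, and the p-values compare these libraries, not the conditions. In such bulk samples fewer cells of a type and less RNA per cell cannot be told apart. All 7 melanocyte lineage markers had a row in each table. Of 6 markers of immune, epithelial, endothelial and stromal cells, 3 had a row at 2 weeks, 3 at 5 weeks and 2 in the clone, with SEs of at least 2.58. Orai1 was looked up and had no row in the 3 tables as used here, so the clone's label could not be checked by its gene.

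Many symbols in these tables share exactly the same change, SE and p with another symbol. This touched 87 of the 233 solute carriers in at least 1 table, and 146 had values of their own wherever they had a row. Much of the sharing lay in poorly measured rows. The 2-week table held 66 sharing members, and 41 of them had an SE above 1. Such rows numbered 40 among 65 in the 5-week table and 46 among 70 in the clone's table. Slc8a3, Slc4a1 and Slc6a11, for example, all had 0.887 (SE 4.08) in the authors' deposited 2-week table. Whether such rows are equal values of separate genes cannot be told, because levels are unknown. For 24 solute carriers the same partner recurred in all 3 tables at an SE of at most 1, as for Slc1a4 with Prkcd, Slc7a1 with Son, Slc25a44 with Drosha and Slc8a1 with Ascc1. The values of these 24 cannot be assigned to the solute carrier or to its partner. Family counts below use only genes with values of their own, and families were formed by Slc number, so single members can carry another cargo. Of all members, 209 had a row in the 3 tables, 7 in a pair of them and 17 in a single one, and no filter on low values was applied.

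Few solute carriers changed at 2 weeks of UV, those that changed at 5 weeks mostly rose, and in the clone many changed in both directions. At 2 weeks 4 of 215 members rose and 9 fell, against a background of 3.13% of all genes higher and 4.55% lower. At 5 weeks 14 of 219 rose and 4 fell, against 3.07% of all genes higher and 1.71% lower. In the clone 23 of 224 rose and 26 fell, against 10.3% of all genes higher and 11.6% lower. Among members with values of their own, 6.71% (10 of 149) passed at 2 weeks, beside 8.99% of all such genes. The share was 9.74% (15 of 154) at 5 weeks, beside 5.51%, and 27.3% (42 of 154) in the clone, beside 25.9%. The shares at 2 weeks and in the clone lie near their backgrounds. Counts of each family and list below stand beside these same shares of all genes with values of their own, 8.99%, 5.51% and 25.9%, which are themselves highest in the clone.

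Large changes were few. A passing change of at least 2-fold was seen for 1 member at 2 weeks, 6 at 5 weeks and 19 in the clone, against 0.348%, 1.81% and 6.79% of all genes in those tables. The member at 2 weeks shares its values with another symbol. The median log2 change of members with values of their own in the authors' deposited tables was 0.015 at 2 weeks, -0.016 at 5 weeks and 0.0042 in the clone, beside 0.020, 0.0069 and 0.033 over all such genes. No shift of all solute carriers was visible in these medians, and the results below concern subfamilies and single genes.

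**Figure D1:**
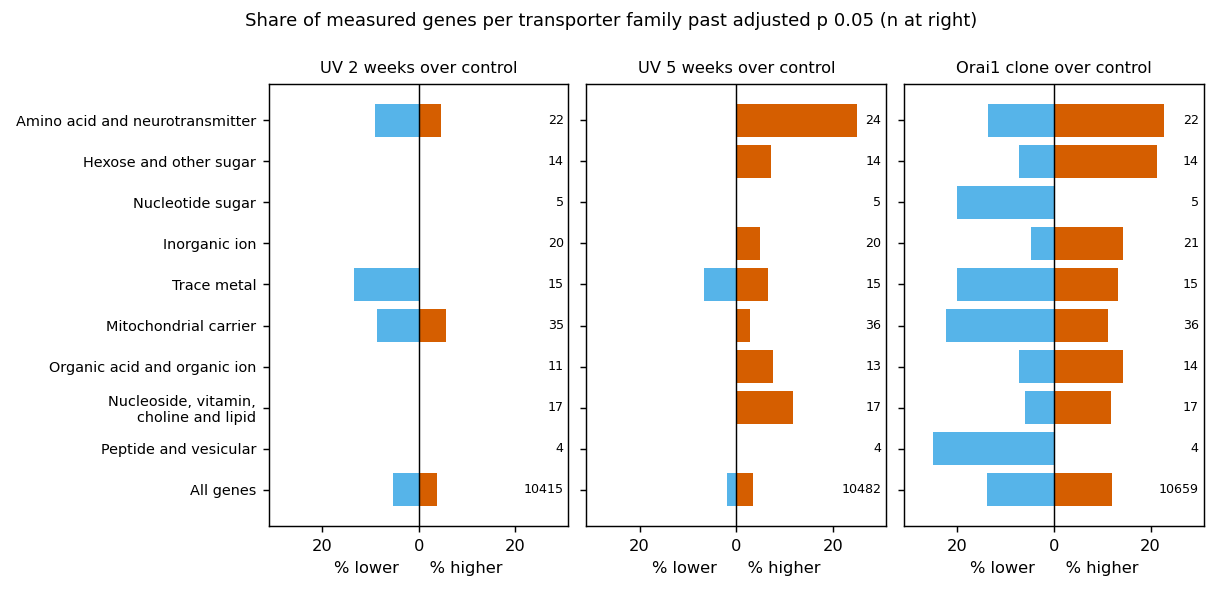
Share of genes in each transporter family with an adjusted p under 0.05, as percent higher (right of 0) and percent lower (left of 0), in 1 panel per comparison with the control; genes with values of their own only, with their number at the right edge and all genes in the last row. The amino acid family stands out to the right at 5 weeks, where 6 of 24 genes were higher and none lower, and the clone panel has bars on both sides in most families.

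Amino acid and neurotransmitter carriers were the family with the most passing genes at 5 weeks. At that time 6 of 24 rose and 0 fell, with a median log2 change of 0.51 in the authors' deposited table, beside 0.0069 over all genes with values of their own. At 2 weeks 1 of 22 rose and 2 fell, with a median of 0.064, and in the clone 5 of 22 rose and 3 fell, with a median of 0.16 in the authors' deposited table.

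Slc1a5, the sodium-dependent exchanger that brings glutamine into many tumour cells, was the amino acid carrier that rose in all 3 comparisons. In the authors' deposited tables its log2 change was 0.67 (adjusted p = 1.46e-07, SE 0.11) at 2 weeks, 0.78 (adjusted p = 0.00392, SE 0.20) at 5 weeks and 0.72 (adjusted p = 3.03e-07, SE 0.13) in the clone. The 3 values differ by less than the largest of their SEs, and they share the one control sample.

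The sodium-coupled glutamine carriers Slc38a1 and Slc38a2 behaved differently at the 2 times. Slc38a2, which amino acid shortage is known to induce, fell at 2 weeks by 0.55 on the log2 scale of the authors' deposited table (adjusted p = 4.21e-12, SE 0.071). It rose at 5 weeks, with a log2 change of 0.53 in the authors' deposited table (adjusted p = 0.00205, SE 0.13), and stood at -0.077 in the clone (adjusted p = 0.726, SE 0.094). Slc38a1 stood at -0.17 at 2 weeks in the authors' deposited table (adjusted p = 0.229, SE 0.078). It rose at 5 weeks, with 0.56 (adjusted p = 5.45e-04, SE 0.13), and in the clone, with 0.28 (adjusted p = 0.0358, SE 0.11), in the authors' deposited tables.

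Slc38a7, a glutamine exporter of the lysosomal membrane, separated the clone from UV. In the authors' deposited table for the clone it fell, by 1.08 log2 units (adjusted p = 1.17e-12, SE 0.14), to 0.474 times the control. Its changes under UV, -0.24 (SE 0.13) at 2 weeks and 0.49 (SE 0.17) at 5 weeks in the authors' deposited tables, did not pass (adjusted p = 0.362 and 0.0788).

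The heavy chain Slc3a2 and its large neutral amino acid partner Slc7a5, which takes up leucine and other essential amino acids, passed in different comparisons. Slc3a2 rose at 5 weeks with a log2 change of 0.82 in the authors' deposited table (adjusted p = 1.44e-04, SE 0.17). Its change was 0.16 at 2 weeks (adjusted p = 0.687, SE 0.12) and 0.093 in the clone (adjusted p = 0.771, SE 0.13), per the authors' deposited tables. Slc7a5 fell at 2 weeks by 0.32 (adjusted p = 0.00266, SE 0.081) and in the clone by 0.67 (adjusted p = 1.67e-07, SE 0.12) on the log2 scale of the authors' deposited tables, and stood at 0.31 at 5 weeks (adjusted p = 0.256, SE 0.14).

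Among the other light chains Slc7a6, which exchanges cationic for neutral amino acids, rose in the clone with a log2 change of 1.11 in the authors' deposited table (adjusted p = 6.04e-05, SE 0.24), 2.15 times the control. Under UV its values in the authors' deposited tables were 0.30 (SE 0.27) at 2 weeks and 0.040 (SE 0.34) at 5 weeks. Its relative Slc7a7 had changes of 0.18, 0.044 and 0.31 with SEs of at least 0.61 in the authors' deposited tables, and Slc7a8 had SEs above 1. Of the 8 heavy and light chains listed, 5 had values of their own in each table: 0 rose and 1 fell at 2 weeks, 1 rose and 0 fell at 5 weeks, and 1 rose and 1 fell in the clone.

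Of the Slc6 family, named for carriers of neurotransmitters and related amines, 3 members passed in the clone. Slc6a17, a neutral amino acid carrier of synaptic vesicles in neurons, rose with a log2 change of 1.13 in the authors' deposited table (adjusted p = 7.12e-22, SE 0.11), and it had risen at 5 weeks too, with 0.59 (adjusted p = 0.0312, SE 0.18). At 2 weeks its value in the authors' deposited table was -0.23 (adjusted p = 0.357, SE 0.12). The creatine carrier Slc6a8 fell in the clone by 1.32 on the log2 scale of the authors' deposited table (adjusted p = 7.76e-16, SE 0.15), to 0.400 times the control. Slc6a8 stood at 0.21 at 2 weeks (adjusted p = 0.490, SE 0.13) and -0.56 at 5 weeks (adjusted p = 0.154, SE 0.22) in the authors' deposited tables. Slc6a15, another neutral amino acid carrier, rose in the clone with 1.02 in the authors' deposited table (adjusted p = 0.0361, SE 0.38). Slc7a4, whose own cargo is unsettled, was higher at 5 weeks in the authors' deposited table (adjusted p = 0.0078), but its SE was above 1 and it gets no fold here.

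Amino acid carriers commonly given as targets of the stress factor ATF4 (8 listed) had 5, 6 and 5 genes with values of their own at 2 weeks, at 5 weeks and in the clone. At 2 weeks 1 rose (Slc1a5) and 2 fell (Slc38a2 and Slc7a5). At 5 weeks 3 rose (Slc1a5, Slc38a2 and Slc3a2) and 0 fell, and in the clone 1 rose (Slc1a5) and 1 fell (Slc7a5), beside 8.99%, 5.51% and 25.9% of all genes passing at 2 weeks, at 5 weeks and in the clone. The listed glycine carrier Slc6a9 had a log2 change of 1.03 at 5 weeks in the authors' deposited table (adjusted p = 0.292, SE 0.48). Median log2 changes of the list in the authors' deposited tables were 0.16, 0.80 and -0.077, beside 0.020, 0.0069 and 0.033 over all genes with values of their own.

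**Figure D2:**
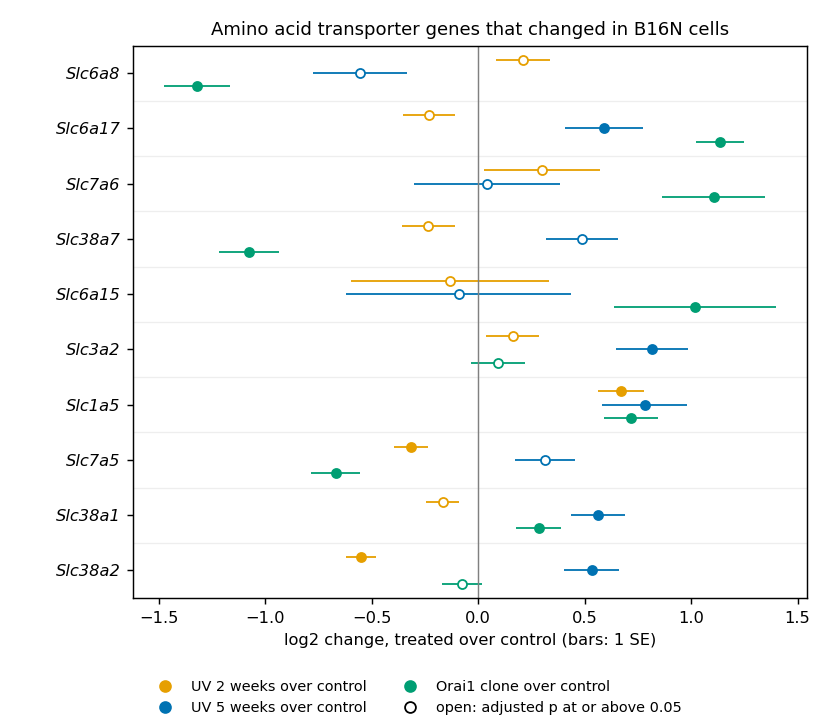
Log2 change over the control (x axis, bars of 1 SE) of the 10 amino acid carrier genes that passed in at least 1 comparison with an SE of at most 1, coloured by comparison; filled points passed adjusted p 0.05 and open points did not. Slc1a5 has 3 filled points near each other, Slc38a2 has its 2-week point left of 0 and its 5-week point right of 0, and the clone's points of Slc6a8 and Slc38a7 lie farthest to the left.

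In the direct comparison of 5 with 2 weeks of UV the members that passed were higher at 5 weeks. The difference of the changes was tested for each gene with its SE from both tables, and 8 of 144 members were higher at 5 weeks and 0 lower, beside 2.31% of all genes higher and 1.44% lower. Of these 8, 6 were among the 21 amino acid carriers compared. For Slc38a2 the difference was 1.08 on the log2 scale (adjusted p = 1.88e-10, SE 0.15), from 0.53 at 5 weeks and -0.55 at 2 weeks in the authors' deposited tables. From the authors' deposited tables Slc6a17 differed by 0.82 (adjusted p = 0.00943, SE 0.22), Slc38a1 by 0.73 (adjusted p = 1.21e-04, SE 0.15) and Slc38a7 by 0.72 (adjusted p = 0.0226, SE 0.21). The heavy chain Slc3a2 differed by 0.66 between the authors' deposited tables (SE 0.21), with an adjusted p of 0.04999 that lies at the threshold, and its partner Slc7a5 by 0.63 (adjusted p = 0.00578, SE 0.16). Heavy and light chain of that transporter were thus both higher at 5 than at 2 weeks. Because the control enters each change, its noise is counted more than once in these SEs; giving the control an equal share of the smaller squared SE made the count 13 higher and 4 lower. Centring the tables on their well measured genes ended the call of Slc3a2 (to p = 0.0664 from the authors' values, adjusted over all genes).

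The other 2 genes that differed between the UV times handle iron and haem. Ferroportin, Slc40a1, the only known iron exporter of mammalian cells, was higher at 5 weeks than at 2 weeks by 1.61 on the log2 scale of the authors' deposited tables (adjusted p = 0.00343, SE 0.40). Against the control it rose at 5 weeks, with 0.93 in the authors' deposited table (adjusted p = 0.0297, SE 0.29), and stood at -0.69 at 2 weeks (adjusted p = 0.122, SE 0.28). Slc48a1, which moves haem out of lysosomes and endosomes, differed by 1.55 between the authors' deposited tables (adjusted p = 0.00327, SE 0.38). It rose at 5 weeks to 2.93 times the control, with a log2 change of 1.55 in the authors' deposited table (adjusted p = 8.26e-06, SE 0.29). The 2-week value of Slc48a1 in the authors' deposited table was 0.00021 (SE 0.25), and that of the clone was 0.43 (adjusted p = 0.206, SE 0.23).

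**Figure D3:**
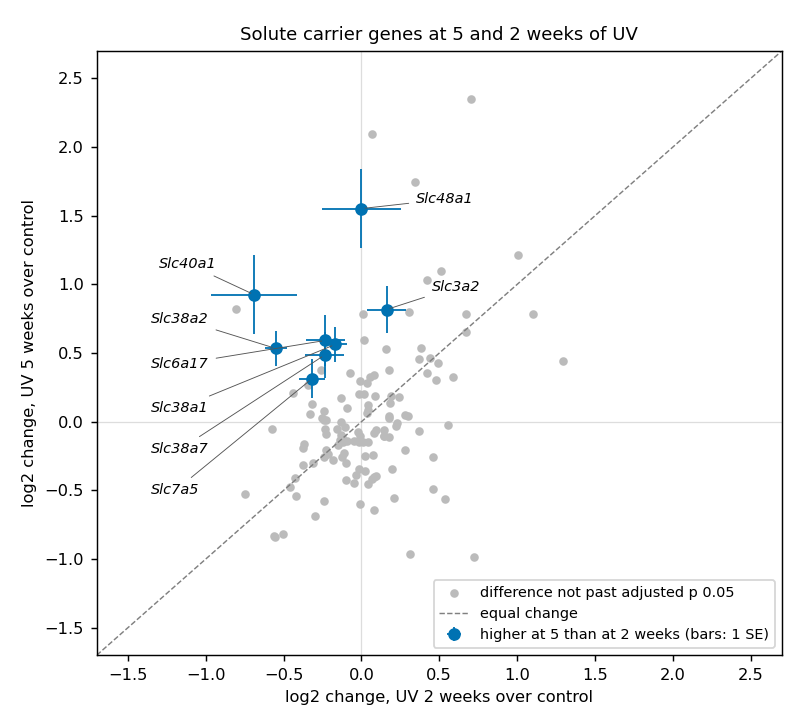
Log2 change over the control at 5 weeks of UV (y axis) against that at 2 weeks (x axis), for 129 solute carrier genes with values of their own and an SE of at most 1 in both tables; the dashed line marks equal change, and both axes share the one control sample. The 8 named points, with bars of 1 SE, passed the test of the difference and all lie above the line.

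Of 13 lysosomal carriers listed, 9 had values of their own in each table. Of these 0 passed at 2 weeks, 3 rose at 5 weeks and 0 fell, and 2 rose and 1 fell in the clone, beside 8.99%, 5.51% and 25.9% of all genes passing. The median log2 change of the list in the authors' deposited tables was 0.0082 at 2 weeks, 0.46 at 5 weeks and 0.028 in the clone. Besides Slc48a1, the listed genes that rose at 5 weeks were Slc46a3 and Slc37a2. Slc46a3, a lysosomal carrier related to the folate transporter, rose at 5 weeks to 4.27 times the control and in the clone to 3.78 times. Its log2 changes in the authors' deposited tables were 2.10 (adjusted p = 0.0314, SE 0.65) and 1.92 (adjusted p = 0.00322, SE 0.54), and its 2-week value was 0.067 (SE 0.77). Slc37a2, an exchanger of glucose 6-phosphate, stood at 0.78 at 5 weeks in the authors' deposited table (SE 0.26), with an adjusted p of 0.04998 at the threshold. In the clone it rose with 1.21 (adjusted p = 8.68e-08, SE 0.21) in the authors' deposited table, and at 2 weeks it was at 0.0082 (SE 0.24). Neither Slc46a3 nor Slc37a2 passed the test of the difference between 5 and 2 weeks. From the authors' deposited tables the difference was 2.03 for Slc46a3 (adjusted p = 0.381, SE 1.01) and 0.77 for Slc37a2 (adjusted p = 0.297, SE 0.35). The listed carriers Slc36a1, Slc38a9, Slc29a3, Slc15a4 and Slc17a5 passed in none of the 3 comparisons.

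The group of sugar carriers held 14 genes, among them the iodide carrier Slc5a5 and the vitamin carrier Slc5a6, which carry no sugar and passed in no comparison. In the group 0 passed at 2 weeks, 1 rose at 5 weeks (Slc37a2), and 3 rose and 1 fell in the clone, where 28.6% passed, near the 25.9% of all genes. The sugar efflux carrier Slc50a1 rose in the clone with a log2 change of 1.06 in the authors' deposited table (adjusted p = 1.79e-04, SE 0.25), with 0.59 (adjusted p = 0.129, SE 0.24) at 2 weeks and 0.33 (SE 0.30) at 5 weeks. The intracellular glucose carrier Slc2a8 rose in the clone with 0.56 in the authors' deposited table (adjusted p = 0.03, SE 0.20). Slc2a9, which carries urate, fell there by 0.71 on the log2 scale of the authors' deposited table (adjusted p = 0.0114, SE 0.23). The glucose carriers Slc2a1 and Slc2a3 are not among the members. Of 5 nucleotide sugar carriers, which supply the Golgi apparatus, Slc35a5 fell in the clone by 0.61 on the log2 scale of the authors' deposited table (adjusted p = 1.08e-04, SE 0.14) and the other 4 did not pass in any comparison.

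Among 20 inorganic ion carriers at each UV time and 21 in the clone, 0 passed at 2 weeks, 1 rose at 5 weeks, and 3 rose and 1 fell in the clone. The gene at 5 weeks was the magnesium carrier Slc41a2, at 5.10 times the control, with a log2 change of 2.35 in the authors' deposited table (adjusted p = 5.63e-05, SE 0.47). Its values at 2 weeks and in the clone, 0.70 (SE 0.53) and 1.24 (SE 0.52) in the authors' deposited tables, did not pass (adjusted p = 0.666 and 0.0697). Its relative Slc41a1, a magnesium exporter driven by sodium, rose in the clone to 2.61 times the control, with 1.38 in the authors' deposited table (adjusted p = 3.08e-04, SE 0.33). Slc41a1 stood at 0.37 (SE 0.39) at 2 weeks and 0.46 (SE 0.44) at 5 weeks in the authors' deposited tables.

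The potassium and chloride cotransporter Slc12a7 rose in the clone to 2.33 times the control, with a log2 change of 1.22 in the authors' deposited table (adjusted p = 1.30e-07, SE 0.21). Its UV values in the authors' deposited tables were -0.13 (SE 0.23) at 2 weeks and 0.18 (SE 0.26) at 5 weeks. Slc4a8, a sodium-driven exchanger of chloride and bicarbonate, rose in the clone with 1.06 (adjusted p = 0.0470, SE 0.41) in the authors' deposited table, and its 5-week value of 1.10 (adjusted p = 0.237, SE 0.48) did not pass. The sulfate carrier Slc26a2 fell in the clone by 1.05 (adjusted p = 2.00e-08, SE 0.17) in the authors' deposited table, to 0.484 times the control, beside 0.15 (SE 0.14) at 2 weeks and -0.063 (SE 0.25) at 5 weeks.

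The exchangers that extrude calcium against sodium could hardly be read in these tables. Of the 8 listed, 7 had a row at 2 weeks, 6 at 5 weeks and 6 in the clone, but a single one, the mitochondrial exchanger Slc8b1, had values of its own. Slc8b1 is outside the member rule, and its log2 changes in the authors' deposited tables were 0.41 (SE 0.44), -0.041 (SE 0.54) and -0.59 (SE 0.52), none of which passed.

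Trace metal carriers (15 with values of their own) fell at 2 weeks in 2 cases and rose in 0, rose once and fell once at 5 weeks, and rose in 2 and fell in 3 cases in the clone. Both genes that fell at 2 weeks were importers of zinc into the cytosol. Slc39a10 fell at 2 weeks by 0.42 (adjusted p = 0.0232, SE 0.13) and at 5 weeks by 0.54 (adjusted p = 0.0219, SE 0.16) on the log2 scale of the authors' deposited tables, and stood at -0.15 in the clone (adjusted p = 0.557, SE 0.13). Slc39a6 fell at 2 weeks by 0.24 (adjusted p = 0.0395, SE 0.081) and in the clone by 0.30 (adjusted p = 0.0208, SE 0.10) on the log2 scale of the authors' deposited tables, with 0.079 (SE 0.14) at 5 weeks, and centring ended its call at 2 weeks (adjusted p = 0.0803).

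In the clone the zinc and iron importer Slc39a14 fell by 0.93 (adjusted p = 2.41e-14, SE 0.11) in the authors' deposited table, to 0.524 times the control, and the zinc exporter Slc30a5, which loads the secretory pathway, fell by 0.48 (adjusted p = 5.42e-04, SE 0.12). Slc39a11 and Slc39a3, further zinc importers, rose there with 0.64 (adjusted p = 5.05e-07, SE 0.12) and 0.48 (adjusted p = 9.25e-04, SE 0.12) in the authors' deposited table. None of these 4 passed under UV. Of the 17 zinc carriers listed, 12 had values of their own, with 0 higher and 2 lower at 2 weeks, 0 and 1 at 5 weeks, and 2 and 3 in the clone.

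**Figure D4:**
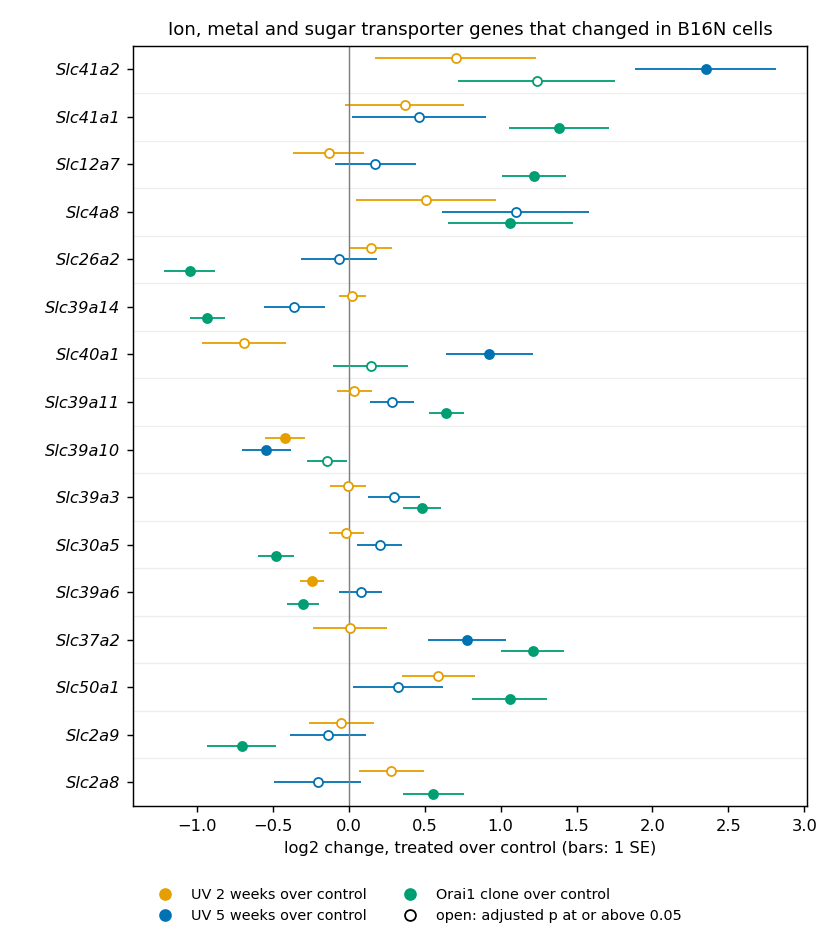
Log2 change over the control (x axis, bars of 1 SE) of the 16 ion, metal and sugar carrier genes that passed in at least 1 comparison with an SE of at most 1, coloured by comparison; filled points passed adjusted p 0.05. Slc41a2 is the gene farthest to the right, at its 5-week point, while the clone places Slc12a7, Slc41a1 and Slc37a2 to the right and Slc26a2 and Slc39a14 to the left.

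Mitochondrial carriers were the largest family, with 35 genes with values of their own at 2 weeks and 36 in each other table, and 33.3% of them passed in the clone, beside 25.9% of all genes. In it 4 rose and 8 fell. At 2 weeks 2 rose and 3 fell (14.3%, beside 8.99%), and at 5 weeks 1 rose and 0 fell (2.78%, beside 5.51%). The family was measured more precisely than most genes. An SE of at most 0.5 was found for 32 of 36 in the clone, beside 7708 of 10659 of all genes with values of their own. At 2 weeks it was found for 30 of 35, beside 7658 of 10415. The part of this precision in the shares was not tested. The median log2 changes in the authors' deposited tables were -0.019, -0.039 and -0.0080, beside 0.020, 0.0069 and 0.033 over all genes with values of their own.

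The adenine nucleotide carriers, which exchange ADP for ATP, fell in the clone. Slc25a5 fell by 0.79 (adjusted p = 2.20e-15, SE 0.094) and Slc25a4 by 0.40 (adjusted p = 6.14e-04, SE 0.10) on the log2 scale of the authors' deposited table. Under UV Slc25a5 stood at 0.040 (SE 0.074) at 2 weeks and 0.12 (SE 0.11) at 5 weeks, and Slc25a4 at 0.086 (SE 0.084) and 0.19 (SE 0.12), in the authors' deposited tables. Neither passed at either time. The difference between the clone and 5 weeks, from the authors' deposited tables, passed for both, at -0.92 for Slc25a5 (adjusted p = 7.26e-08, SE 0.15) and -0.59 for Slc25a4 (adjusted p = 0.00447, SE 0.15).

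The aspartate and glutamate carriers Slc25a12 and Slc25a13 are parts of the shuttle that brings reducing equivalents into mitochondria, and both bind calcium. Slc25a12 fell in the clone by 0.87 (adjusted p = 1.70e-09, SE 0.13) in the authors' deposited table, to 0.546 times the control, and stood at -0.16 (SE 0.12) at 2 weeks and -0.050 (SE 0.16) at 5 weeks. Slc25a13 fell at 2 weeks by 0.42 (adjusted p = 6.32e-06, SE 0.078) and in the clone by 0.51 (adjusted p = 3.89e-07, SE 0.091) on the log2 scale of the authors' deposited tables. At 5 weeks Slc25a13 was at -0.41 in the authors' deposited table, close to its 2-week value, but with an SE of 0.15 it did not pass (adjusted p = 0.0867). The ornithine carrier Slc25a15 fell at 2 weeks by 0.38 (adjusted p = 0.0484, SE 0.13) and in the clone by 0.62 (adjusted p = 2.18e-04, SE 0.14) on the log2 scale of the authors' deposited tables, and centring ended its call at 2 weeks (adjusted p = 0.0750).

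Among the carriers of carboxylic acids 2 rose in the clone. The citrate carrier Slc25a1, which supplies carbon for fatty acid synthesis, rose with 0.48 (adjusted p = 0.00230, SE 0.13), and the dicarboxylate carrier Slc25a10 rose with 0.35 (adjusted p = 0.0302, SE 0.13) in the authors' deposited table. The oxoglutarate carrier Slc25a11, at 0.24 (adjusted p = 0.0725, SE 0.10) in the authors' deposited table, did not pass. None of the 3 passed under UV, and Slc25a1 was higher in the clone than at 5 weeks by 0.72, from the authors' deposited tables (adjusted p = 0.0432, SE 0.24). Over the 9 core carriers listed, all with values of their own, 2 rose and 4 fell in the clone, 0 rose and 1 fell at 2 weeks, and 0 passed at 5 weeks. The phosphate carrier Slc25a3 and the glutamate carrier Slc25a22 did not pass in any table, with SEs of 0.67 to 0.81 for Slc25a3.

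At 2 weeks the acylcarnitine carrier Slc25a20, which feeds fatty acid oxidation, rose with 0.56 (adjusted p = 0.0317, SE 0.18), and the mitochondrial iron importer Slc25a37 rose with 0.49 (adjusted p = 0.00223, SE 0.12) in the authors' deposited table. At 5 weeks these 2 were at -0.025 (SE 0.24) and 0.43 (adjusted p = 0.130, SE 0.16) in the authors' deposited table. The pyrimidine nucleotide carrier Slc25a33 was the one carrier that rose at 5 weeks, with 0.80 (adjusted p = 0.00751, SE 0.22) in the authors' deposited table. Slc25a34, a carrier of unsettled cargo, rose in the clone to 3.61 times the control, with 1.85 (adjusted p = 4.04e-04, SE 0.45) in the authors' deposited table, and its 2-week value of 1.29 (adjusted p = 0.0838, SE 0.49) did not pass.

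A further 4 members of the family passed and are named after their values were seen. The mitochondrial NAD importer Slc25a51 fell at 2 weeks by 0.31 (adjusted p = 0.0135, SE 0.093) and rose in the clone with 0.31 (adjusted p = 0.0087, SE 0.097) in the authors' deposited tables, and the difference, clone minus 2 weeks, was 0.63 (adjusted p = 8.84e-05, SE 0.13). Its 5-week value in the authors' deposited table was 0.13 (SE 0.13). The peroxisomal carrier Slc25a17, the outer membrane protein Slc25a46 and the pyrimidine nucleotide carrier Slc25a36 fell in the clone by 0.46, 0.53 and 0.43 on the log2 scale of the authors' deposited table, each with an adjusted p of at most 0.015.

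**Figure D5:**
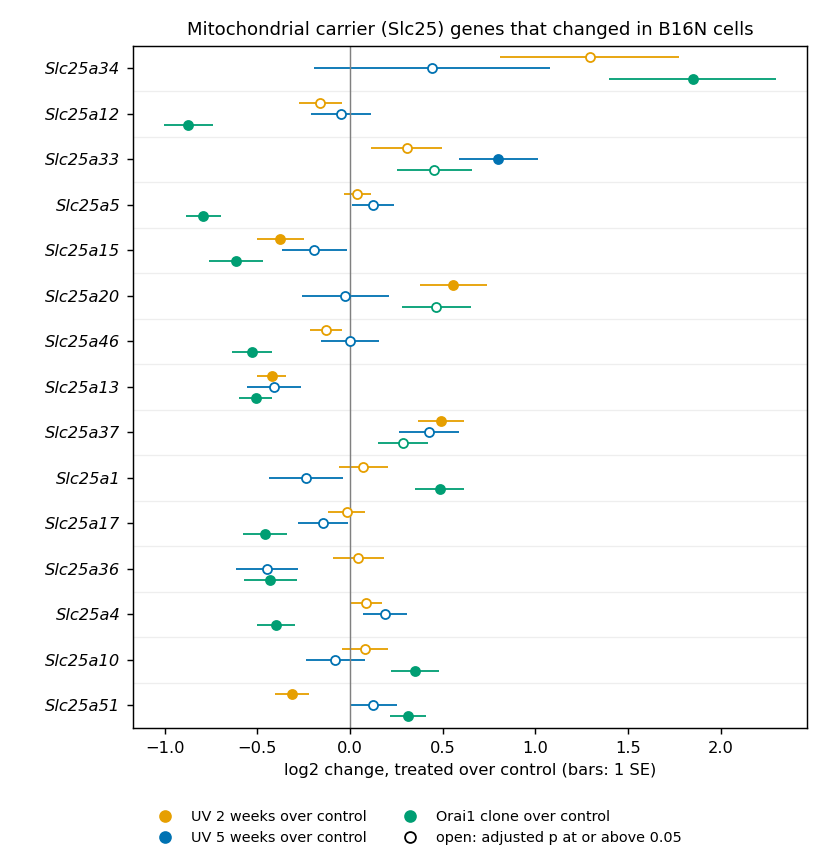
Log2 change over the control (x axis, bars of 1 SE) of the 15 Slc25 genes that passed in at least 1 comparison with an SE of at most 1, coloured by comparison; filled points passed adjusted p 0.05. The clone's points of Slc25a12 and Slc25a5 lie farthest to the left, well apart from both UV points, while the 3 points of Slc25a13 lie together between -0.51 and -0.41.

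Organic acid and organic ion carriers passed in 0 of 11 cases at 2 weeks, rose in 1 of 13 at 5 weeks, and rose in 2 and fell in 1 of 14 in the clone. Slc10a3, a relative of the bile acid carriers, fell in the clone by 0.95 (adjusted p = 3.97e-10, SE 0.14) in the authors' deposited table, to 0.517 times the control. In the authors' deposited tables Slc22a18, an imprinted gene of the organic cation carriers, was higher at 5 weeks (adjusted p = 0.0212) and in the clone (adjusted p = 0.0051), but its SEs were above 1 and no fold is given.

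Nucleoside, vitamin and lipid carriers (17 genes) passed in 0 cases at 2 weeks, rose in 2 at 5 weeks (Slc48a1 and Slc46a3), and rose in 2 and fell in 1 in the clone. The folate carrier Slc46a1 rose in the clone with 0.93 (adjusted p = 0.0320, SE 0.34), and the nucleoside carrier Slc29a1 fell there by 0.35 (adjusted p = 0.0414, SE 0.13, and 0.0576 after centring), in the authors' deposited table. Of 4 peptide and vesicular carriers, the peptide importer Slc15a2 fell in the clone by 0.93 (adjusted p = 1.09e-04, SE 0.21) in the authors' deposited table, to 0.527 times the control, and none passed under UV.

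In direct comparisons of the clone with the UV samples falls outnumbered rises, among the members and among all genes alike. Against 5 weeks, 2 of 150 members were higher in the clone and 10 lower, beside 1.49% of all genes higher and 4.69% lower. Of 21 amino acid carriers 0 were higher and 4 lower. Between the authors' deposited tables Slc38a7 differed by -1.56 (adjusted p = 3.12e-10, SE 0.22), Slc7a5 by -0.98 (adjusted p = 6.06e-06, SE 0.18), Slc3a2 by -0.72 (adjusted p = 0.0153, SE 0.21) and Slc38a2 by -0.61 (adjusted p = 0.00442, SE 0.16). This comparison and that of 5 with 2 weeks use the same 5-week sample, and with the control's share changed as above the count was 5 higher and 17 lower. The haem carrier Slc48a1 was lower in the clone than at 5 weeks, with a difference of -1.13 between the authors' deposited tables (adjusted p = 0.0379, SE 0.37), and Slc12a7 was higher by 1.04 (adjusted p = 0.0362, SE 0.34).

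Against 2 weeks, 8 of 145 members were higher in the clone and 14 lower, beside 5.25% of all genes higher and 7.98% lower. The widest gaps that passed between the authors' deposited tables were those of the creatine carrier Slc6a8, at -1.53 (adjusted p = 2.50e-12, SE 0.20), and of Slc6a17, at 1.37 (adjusted p = 4.05e-14, SE 0.17). By the authors' deposited tables Slc12a7 at 1.35 (adjusted p = 3.20e-04, SE 0.31) and Slc37a2 at 1.20 (adjusted p = 0.00245, SE 0.32) were higher in the clone, and Slc26a2 at -1.19 (adjusted p = 1.70e-06, SE 0.22) and Slc39a14 at -0.96 (adjusted p = 4.01e-09, SE 0.15) were lower. Of 35 mitochondrial carriers 1 was higher (Slc25a51) and 5 lower in the clone, with Slc25a5 at -0.83 (adjusted p = 3.26e-10, SE 0.12) and Slc25a12 at -0.71 (adjusted p = 0.00104, SE 0.18) in front, from the authors' deposited tables.

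Among the 6 symbols that name no transporter, the scaffold Slc9a3r2, which tethers the sodium and proton exchanger Slc9a3 at the membrane, passed. It fell at 5 weeks by 0.69 (adjusted p = 0.00369, SE 0.17) and in the clone by 0.97 (adjusted p = 5.98e-10, SE 0.14) on the log2 scale of the authors' deposited tables, with -0.29 (adjusted p = 0.212, SE 0.13) at 2 weeks.

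Transport genes outside the Slc naming were read from a list of 25 transport genes. At 2 weeks 2 of the 16 with values of their own rose and 2 fell, at 5 weeks 0 of 15 passed. In the clone 5 of 17 rose and 0 fell. Passing in either direction were 8.99%, 5.51% and 25.9% of all such genes at 2 weeks, at 5 weeks and in the clone. The list's share lies above this background at 2 weeks and near it in the clone. By direction the clone's list differs from its background, where 1276 of 10659 genes rose and 1481 fell. With so few genes on the list, neither contrast was tested. In the clone the serine carrier Sfxn1 rose with 1.17 (adjusted p = 0.0020, SE 0.32) and the lysosomal carrier Mfsd1 with 0.78 (adjusted p = 3.0e-08, SE 0.13) in the authors' deposited table. At 2 weeks the mitochondrial pyruvate carrier subunit Mpc2 rose with 0.50 (adjusted p = 5.0e-04, SE 0.11), while the phosphate exporter Xpr1 fell by 0.53 (adjusted p = 0.0017, SE 0.13), in the authors' deposited table.

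Several members that passed share their values with another symbol, so the change belongs to an unknown one of the pair or to both. Slc1a4, a neutral amino acid exchanger, passed with the kinase Prkcd in all 3 comparisons: -0.86 (SE 0.15) at 2 weeks, 1.10 (SE 0.21) at 5 weeks and -1.17 (SE 0.17) in the clone, all with adjusted p of at most 1.72e-05, in the authors' deposited tables. Slc30a4 with Zdhhc8 fell at 5 weeks by 0.76 and in the clone by 0.84, in the authors' deposited tables. Slc25a44 with Drosha rose in the clone with 1.63 (adjusted p = 4.02e-08, SE 0.27) in the authors' deposited table. Slc34a1 with Sos2 fell at 2 weeks by 0.49 and in the clone by 0.40, and Slc22a3 with Ywhaq fell in the clone by 0.52, in the authors' deposited tables.

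The remaining members did not pass, and their SEs say how small a change could be seen. Of members with values of their own, an SE of at most 0.5 was found for 107 of the 149 at 2 weeks, for 99 of the 154 at 5 weeks and for 109 of the 154 in the clone, while 17, 25 and 22 had an SE above 1, where an adjusted p under 0.05 needs a change of several log2 units. The 17 members with a row in a single table include the glutamate carriers Slc1a2 and Slc1a3 and the second heavy chain Slc3a1. Such rows belong to the check that set the sign, so their direction was fixed by it and is no result. The named genes also share their values with other symbols. Their SEs were 4.08 for Slc1a2 and Slc3a1 in the clone and 3.92 for Slc1a3 at 5 weeks, and none passed.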

How the data were processed

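RNA-seq of 8 melanoma samples was deposited as 5 tables of the authors' comparisons, 3 of B16N with 1 sample per group. The build was GRCm38, per the submitters' processing notes, and neither aligner nor counting nor test is given in the sources used here. Per the file headers, the deposited columns are p-value, test statistic (read as a score) and log2 fold change. Counts and levels were not analysed here, so depth is unknown.

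The authors' deposited log2 fold changes had the control on top: 1357 symbols had a row in a single B16N table, with 1357 negative and 0 positive values. All signs were turned. The p-value was the two-sided normal p of the score, so the SE is the log2 change divided by the score. Benjamini-Hochberg adjustment ran over 14648, 14821 and 15041 rows, at 0.05. Left out were 1 row per table that had no symbol and 3 rows of the clone's table that had no p-value. Differences between treated samples were tested by a two-sided normal test with squared SEs added, adjusted over 10166, 10278 and 10218 genes with values of their own. Symbols sharing change, statistic and p were taken as sharing values. Procedures were tested on simulated data.

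Named genes were those with values of their own and an SE of at most 1 that passed with 2-fold, led their family (up to 4 per comparison) or a difference (up to 8), or stood in the 7 lists. Some genes under this rule are not reported here. Members, families and lists were chosen with earlier results of these data known. Alternatives were fold minimums of 1.5 and 2, an adjusted p under 0.01, Benjamini-Yekutieli adjustment, an SE of at most 0.5, shared values left out, centring on genes of SE at most 0.3, and a common control holding part of the spread. No mouse genome was used, so no coordinates or sequences are given. Python 3.11.15, numpy 2.4.6, pandas 2.3.3, scipy 1.17.1 and matplotlib 3.10.9 were used.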

Additional observations from a re-analysis of the deposited data

Results flagged for a closer look

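For 8 solute carriers the change after 5 weeks of UV differed from that after 2 weeks by the test of the difference itself (Benjamini-Hochberg adjusted over all genes compared). The difference, 5 weeks minus 2 weeks on the log2 scale, was 1.61 for the iron exporter Slc40a1, 1.55 for the haem carrier Slc48a1, 1.08 for the glutamine carrier Slc38a2 and 0.82 for the neutral amino acid carrier Slc6a17. It was 0.73 for Slc38a1, 0.72 for the lysosomal glutamine carrier Slc38a7, 0.66 for the heavy chain Slc3a2 and 0.63 for its light chain Slc7a5. All 8 are higher at 5 weeks, each rests on 1 sample per time, and the adjusted p of Slc3a2 (0.04999) lies at the threshold. The part of differences in depth or culture in these values was not tested.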

How the results depend on the processing

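Of 13 members that passed at 2 weeks, 3 passed with a minimum of 1.5-fold, 1 with 2-fold, 8 with an adjusted p under 0.01 and 8 with Benjamini-Yekutieli adjustment. Of 18 at 5 weeks, 6 passed with 2-fold and 9 with Benjamini-Yekutieli adjustment, and of 49 in the clone, 19 passed with 2-fold. The 8 differences between 5 and 2 weeks became 17 (13 higher, 4 lower) where the common control was given an equal share of the smaller squared SE. Under that setting the 12 differences between the clone and 5 weeks became 22 (5 higher, 17 lower), and with an adjusted p under 0.01 they became 7. The 22 differences between the clone and 2 weeks stayed within 1.5 times under each alternative. After centring on genes with an SE of at most 0.3, whose medians were -0.023, -0.010 and -0.019, the 2-week values of Slc30a5, Slc39a13 and Slc39a3 turned to 0.0067, 0.0096 and 0.016, and none of them had passed. Centring also ended the calls of Slc25a15 and Slc39a6 at 2 weeks (to p = 0.0750 and 0.0803 from the authors' values, adjusted over all genes), of Slc29a1 in the clone (0.0576) and of the difference of Slc3a2 (0.0664). No paired analysis was possible because each group has 1 sample and the tables hold comparisons. Depth is unknown, so the SE is the measure of what could be seen.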

Other observations

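The tables of the human lines hold 420 rows each, among them 3 symbols that begin with SLC, and their direction (UV over control or the reverse) is unknown. As deposited, the authors' table for WM983 gives log2 values of 1.16 for SLC44A1 (p = 5e-05, unadjusted), -1.26 for SLC43A3 (p = 5e-05) and -1.33 for SLC22A18AS (p = 0.00035), the last being an antisense gene. In the authors' deposited table for UACC257 the same 3 had 0.095 (p = 0.4798), 0.017 (p = 0.9023) and 0.075 (p = 0.7945). SLC44A1 carries choline and SLC43A3 carries purine bases.

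Of the family of the Orai1 channel, Orai2 had a row in the B16N tables, with log2 changes in the authors' deposited tables of -0.044 (SE 0.13) at 2 weeks, 0.49 (SE 0.15, adjusted p = 0.0330) at 5 weeks and 0.56 (SE 0.13, adjusted p = 1.39e-04) in the clone.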
